A study of Mus musculus with 28 samples.

Results

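The replication-dependent histone genes code for the core histones H2A, H2B, H3 and H4 and the linker histone H1, and they lie in clusters on a few chromosomes. They were taken here as the protein-coding rows of the RNA-seq count table whose symbol starts with Hist1h, Hist2h, Hist3h or Hist4h and whose counts summed to at least 50 over the RNA-seq libraries. The rule gave 66 of 49089 genes in the table, with 6 of H1, 18 of H2A, 17 of H2B, 12 of H3 and 13 of H4. Of 68 protein-coding rows with these prefixes, Hist1h2aa with 1 count and Hist1h2ba with 37 counts fell below the minimum. Hist1h1t with 51 counts and Hist2h3c1 with 119 counts lay just above it.

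C2C12 is an immortalised mouse myoblast line that leaves the cell cycle and fuses into multinucleated myotubes when serum is lowered. RNA was sequenced from cells in growth medium (GM, DMEM with 20% fetal bovine serum) and at 12, 24, 48, 60 and 96 h in differentiation medium (DM, with 3% horse serum, started at 90% confluence), with 3 libraries per group. All groups are the same line with no other treatment, and nothing in the labels ties the 3 libraries of a group to separate cultures. The p-values thus reflect variation among libraries that could be purely technical. Accessible chromatin (ATAC-seq) and chromosome contacts (Hi-C) were mapped in GM and at 60 h, and their deposited lists hold 1 set of calls per condition.

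Replication-dependent histone mRNA is made mainly in S phase, when newly copied DNA must be packed into nucleosomes. Unlike other mRNAs of animal cells, most of it ends in a conserved stem-loop instead of a poly(A) tail; the stem-loop binding protein Slbp takes part in its 3′ end processing, translation and decay. The coactivator Npat, a substrate of cyclin E with Cdk2, acts at these genes in histone locus bodies. Cells that stop dividing switch to variant histones such as H3.3, whose genes are transcribed outside S phase and give polyadenylated mRNA. A few of the clustered genes, Hist1h1c, Hist1h2bc and Hist2h2be among them, are known also to give polyadenylated transcripts in cells that have stopped dividing. The sources used here do not give whether libraries were selected for poly(A), and the labels name total RNA as the material. A level below is therefore that of the transcripts this preparation captured.

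Per library 24.2 to 36.4 M reads were counted on genes (M stands for 10 to the power 6). The muscle markers of the line were present. The summed level of 8 identity genes was 696 ± 16.4 CPM (counts scaled to 1 M of effective library size) in GM. It was 569 ± 32.4 CPM at 12 h and 4469 ± 163 CPM at 96 h (SD, n = 3). Among the 8, Myf5 fell from a mean of 74.0 CPM in GM to 32.5 CPM at 96 h, and the others rose. Of 14 markers of other cell types, 12 stayed under 1 CPM in every library, Acan, Adgre1 and Sox10 were at 0, and the sum of all 14 was between 15.0 and 17.1 CPM in GM and between 9.41 and 10.6 CPM at 96 h. In bulk samples, fewer cells in S phase and less histone mRNA per cell cannot be told apart.

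The genome positions and promoter sequences of the members came from RefSeq (GRCm38.p6, which is mm10, the build of the files). Each of the 66 members matched an entry there by a synonym, since its current RefSeq symbol is another. The large Hist1 set lies on chromosome 13 in a pair of blocks separated by 1487 kb, with 23 members at chr13:21715711-22043658 and 29 at chr13:23531044-23764412, and Hist1h2al was placed apart from both at chr13:51200084-51203066. That entry is a transcribed pseudogene in RefSeq, so the position of Hist1h2al is uncertain. The 10 Hist2 members lie within 50.3 kb at chr3:96219885-96270192. The 2 Hist3 members lie at chr11:58948911-58955192, and Hist4h4, the single Hist4 member, at chr6:136803993-136804431.

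A promoter window from 250 bases before to 50 after the start was found for 60 members. The 5 windows printed here are those of the H1 genes that fell most and least, of an H2B gene whose window also holds the start of its H2A neighbour, and of the H3 and H4 genes with the largest falls at 96 h. They are given on the strand of the gene, with matches to CCAAT, to the element TATAAA, to the octamer ATTTGCAT, to the H1 box AAACACA and to the H4 element GGTCCG, or to their reverse complements, in capitals. No 2 of these matches overlap. The windows are Hist1h1a at chr13:23763418-23763717 (plus strand), Hist1h1c at chr13:23738557-23738856 (plus), Hist1h2bg at chr13:23571150-23571449 (plus), Hist1h3g at chr13:23535168-23535467 (plus) and Hist1h4k at chr13:21750504-21750803 (minus).
Hist1h1a: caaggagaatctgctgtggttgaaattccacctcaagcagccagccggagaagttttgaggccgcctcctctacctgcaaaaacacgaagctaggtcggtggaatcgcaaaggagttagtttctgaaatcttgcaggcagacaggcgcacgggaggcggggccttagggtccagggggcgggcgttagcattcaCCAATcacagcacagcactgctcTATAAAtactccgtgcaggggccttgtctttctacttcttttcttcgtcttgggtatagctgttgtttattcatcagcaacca
Hist1h1c: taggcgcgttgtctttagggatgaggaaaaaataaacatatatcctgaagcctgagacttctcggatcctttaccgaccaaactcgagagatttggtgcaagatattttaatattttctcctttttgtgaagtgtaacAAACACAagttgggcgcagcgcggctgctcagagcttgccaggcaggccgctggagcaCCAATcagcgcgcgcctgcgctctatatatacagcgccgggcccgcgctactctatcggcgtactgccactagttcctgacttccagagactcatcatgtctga
Hist1h2bg: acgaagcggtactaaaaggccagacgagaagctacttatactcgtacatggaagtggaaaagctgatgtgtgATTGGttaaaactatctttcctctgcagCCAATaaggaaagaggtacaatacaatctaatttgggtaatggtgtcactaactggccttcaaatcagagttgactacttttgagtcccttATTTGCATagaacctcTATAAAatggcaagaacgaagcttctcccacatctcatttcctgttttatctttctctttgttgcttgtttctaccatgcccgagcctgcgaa
Hist1h3g: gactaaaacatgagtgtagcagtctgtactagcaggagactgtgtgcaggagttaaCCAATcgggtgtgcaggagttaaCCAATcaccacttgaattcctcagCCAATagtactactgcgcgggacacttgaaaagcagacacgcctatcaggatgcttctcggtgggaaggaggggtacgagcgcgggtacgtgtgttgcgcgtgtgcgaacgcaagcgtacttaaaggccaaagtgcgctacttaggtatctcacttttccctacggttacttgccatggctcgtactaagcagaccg
Hist1h4k: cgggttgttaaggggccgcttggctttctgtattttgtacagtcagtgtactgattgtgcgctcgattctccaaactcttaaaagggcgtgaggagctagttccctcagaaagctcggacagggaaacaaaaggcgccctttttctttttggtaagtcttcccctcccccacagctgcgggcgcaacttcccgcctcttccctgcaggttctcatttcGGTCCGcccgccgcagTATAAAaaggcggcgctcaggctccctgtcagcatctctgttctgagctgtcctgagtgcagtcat

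The promoter windows differed by histone class in the short motifs they hold. CCAAT, on either strand, was in all windows of H1 (6 of 6), H2A (17 of 17), H2B (15 of 15) and H3 (10 of 10), and in 3 of 12 windows of H4, beside 41.1% of the windows of 27025 genes. GGTCCG showed the opposite distribution, with 11 of 12 H4 windows, 1 H2B window and 1 H3 window, and 9.44% over all genes. AAACACA, the box that marks H1 promoters, was in 5 of 6 H1 windows, 1 H2A window and 1 H2B window, with 8.22% over all genes. The octamer ATTTGCAT was in 6 of 17 H2A and 6 of 15 H2B windows and in none of the H1, H3 and H4 windows, with 1.97% over all genes. TATAAA was in 33 of 60 member windows, with 15.7% over all genes. Windows of H2A and H2B genes that start back to back overlap, so 1 match can count in both classes. Near-identical windows of some members, given below, also repeat matches. The counts by class are therefore not independent. These are matches of letters in a window, and a missing match says nothing about binding of a factor.

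Among the 60 members with a promoter window, an H2A and an H2B gene start back to back in 9 places, with 163 to 267 bases between their starts. These 18 members thus share their promoter region with a partner. In the Hist1h2bg window above, the start of Hist1h2ae, transcribed from the other strand, lies at position 23571220. All 9 pairs are in the Hist1 blocks. Hist1h2bc and Hist2h2be have no window and so could not be paired. Hist1h2bc (chr13:23684199-23692480) lies next to the H2A gene Hist1h2ac (chr13:23683473-23683959). Hist2h2be (chr3:96221072-96223738) lies next to the H2A gene Hist2h2ac (chr3:96220413-96220880).

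Histone mRNA fell steeply between 12 and 24 h in DM and reached its lowest level at 96 h. The members together took 12479, 11529.8 and 11548 CPM in the 3 GM libraries. They took 12269, 11236 and 9301 CPM at 12 h, then 2849, 2707 and 2574 CPM at 24 h. The 48 h libraries had 3899, 4061 and 3900.3 CPM. Those at 60 h had 3062, 3156 and 3185 CPM and those at 96 h had 1291, 1312 and 1336 CPM. The GM and 12 h libraries overlapped, and each later time lay wholly apart from both and from the other later times. The mean at 24 h was 22.9% of that in GM, at 48 h 33.4%, at 60 h 26.4% and at 96 h 11.1%. As a share of all counts, the members went from between 1.15% and 1.26% in GM to between 0.125% and 0.127% at 96 h.

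**Figure D1:**
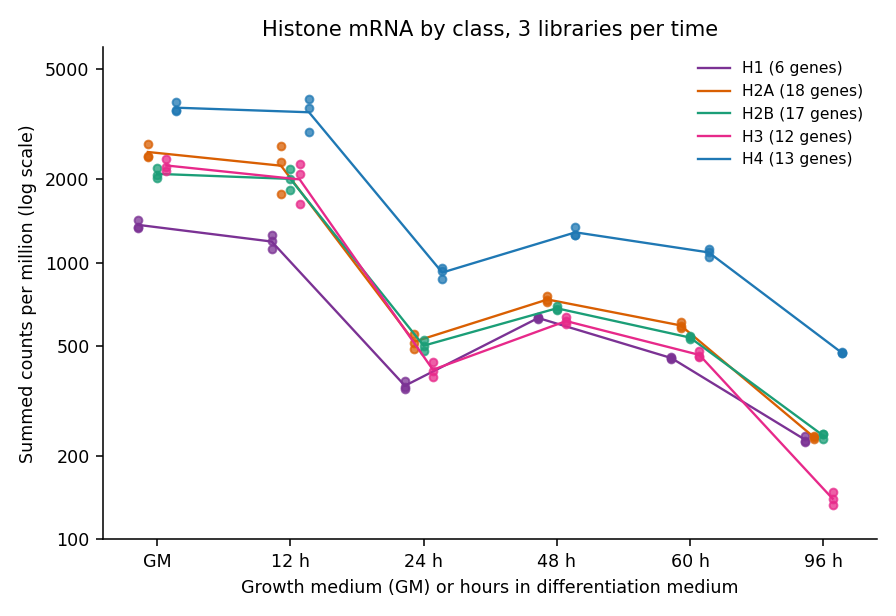
Summed CPM of the members of each histone class (y axis, log scale) in GM and by hours in DM (x axis); points are libraries, lines join the means of 3. Every class drops between 12 and 24 h, is higher at 48 h and is lowest at 96 h, and H3 ends lowest, at a mean of 140.2 CPM.

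The 5 classes followed the same course to different depths. At 96 h the summed CPM was 16.8% of the GM mean for H1, 13% for H4, 11.3% for H2B, 9.3% for H2A and 6.25% for H3. The composition of the histone mRNA moved with this. H3 made up 18.9% ± 0.275 of the members' CPM in GM and 10.7% ± 0.394 at 96 h, and H1 made up 11.6% ± 0.0892 in GM and 17.5% ± 0.291 at 96 h (SD, n = 3). H4 went from 30.6% ± 0.209 to 36% ± 0.506, H2A from 21.2% ± 0.362 to 17.8% ± 0.107, and H2B from 17.7% ± 0.248 to 18% ± 0.277. For H1, H2A, H3 and H4 the GM and 96 h libraries did not overlap; for H2B they did. These shares of a sum carry no test. Per kb of RefSeq length, over the 59 members whose RefSeq span is at most 1000 bases, the sum at 96 h was 10.4% of that in GM. By class it was 17.1% for H1 (6 members), 13% for H4 (13), 8.56% for H2A (17), 7.71% for H2B (11) and 5.96% for H3 (12). H2A and H2B changed places in the order, but this sum covers other members as well as other units. It holds 11 of the 17 H2B members and leaves out Hist1h2bc, which held 76.2 of the 237 CPM of H2B at 96 h. The part of the left-out members in the change of order was not tested.

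Of 66 members, 64 passed the filter on low counts and were tested; Hist1h1t, a testis H1, and Hist2h3c1 were not. Differences below are log2 values with their standard error (SE) from edgeR's quasi-likelihood test over all 18 libraries, and a gene was called at a Benjamini-Hochberg adjusted p under 0.05 over 15303 genes. All 64 were called in the test of any difference from GM, where 86% of all genes were called. Every comparison with GM shares the 3 GM libraries, and neighbouring steps share the libraries of the time between them, so these comparisons are not independent of each other.

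At 12 h most members were not called. Of the 64, 20 were lower and 1 was higher, beside 17.2% of all genes lower and 17.8% higher, with a median log2 difference of −0.14 for the members and 0 for all genes. Hist1h1a, a linker histone gene, had 179, 179.6 and 186 CPM in GM and 125, 124 and 118 CPM at 12 h, with no overlap. It fell most of all members, by 0.57 ± 0.04 (edgeR adjusted p = 1.7e-09). The largest falls of the other classes were those of Hist1h2ak (−0.42 ± 0.09) in H2A, Hist1h2bj (−0.22 ± 0.08) in H2B, Hist1h3a (−0.43 ± 0.09) in H3 and Hist2h4 (−0.34 ± 0.08) in H4. Hist2h2ab was the 1 higher member, with 14.4, 14.1 and 13.3 CPM in GM and 20.2, 19.4 and 13.5 CPM at 12 h (0.35 ± 0.12, edgeR adjusted p = 0.031). The third 12 h library overlapped its GM range.

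The 3 libraries at 12 h differed in their histone mRNA. Against the mean of the other pair of 12 h libraries, the median member was 0.27 higher on the log2 scale in library 1 and 0.35 lower in library 3. In all other groups this median lay between −0.1 and 0.11. The 23 S phase genes summed to between 2507 and 2549 CPM in the same 12 h libraries, an SD of 20.9 CPM, while the members' sum had an SD of 1506 CPM. Without library 3 at 12 h, 6 members were called lower and 8 higher; without library 1, 31 were lower and 0 higher. Leaving out any 1 GM library gave 6 to 11 lower, so the 12 h counts rest on single libraries.

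By 24 h the fall was general. Of the 64 tested members, 63 were lower and 1 was higher, beside 30.6% and 30.2% of all genes, and the median was −2.22 against 0.01 for all genes. The class medians were −2.51 for H3, −2.48 for H2A, −2.13 for H1, −2.12 for H2B and −1.91 for H4. Hist1h3g, an H3 gene at chr13:23535418-23535909, went from 76.7, 72.5 and 77.4 CPM in GM to 12.4, 11.6 and 8.45 CPM at 24 h. It had the largest fall of a member at that time (−2.81 ± 0.13, edgeR adjusted p = 7.3e-14). Hist1h1a fell by 2.73 ± 0.05, Hist1h2ad by 2.78 ± 0.13, Hist1h2bm by 2.49 ± 0.09 and Hist1h4k by 2.60 ± 0.08, the largest falls of their classes.

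At 48 h and 60 h the same counts held, 63 lower and 1 higher, beside 32.8% lower and 32.5% higher of all genes at 48 h and 32.2% and 33.1% at 60 h. The members' medians were −1.74 at 48 h and −2.14 at 60 h. At 60 h 61 members were at least 2-fold lower, beside 7.68% of all genes. The largest falls at 48 h were those of Hist1h1b (−1.84), Hist1h2ad (−2.45), Hist1h2bm (−1.97), Hist1h3d (−2.27) and Hist1h4k (−2.23), 1 for each class. At 60 h they were those of Hist1h1a (−2.50), Hist1h2ao (−2.90), Hist1h2bh (−2.63), Hist1h3d (−2.41) and Hist1h4k (−2.28). Hist1h2ao had a mean of 2.05 CPM in GM and its promoter window shares a run of 200 bases with that of Hist1h2ap.

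At 96 h, 63 members were lower and 1 was higher, beside 34.1% and 34.8% of all genes, and the median was −3.75 against 0.01. In all, 62 were at least 2-fold lower, beside 11.6% of all genes. By class the median was −4.17 for H3, −4.09 for H2A, −3.64 for H2B, −3.30 for H1 and −2.78 for H4. By mean CPM, 41 tested members were under 10% of their GM level and 14 were under 5%. The shares of all genes under these levels are not given here.

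**Figure D2:**
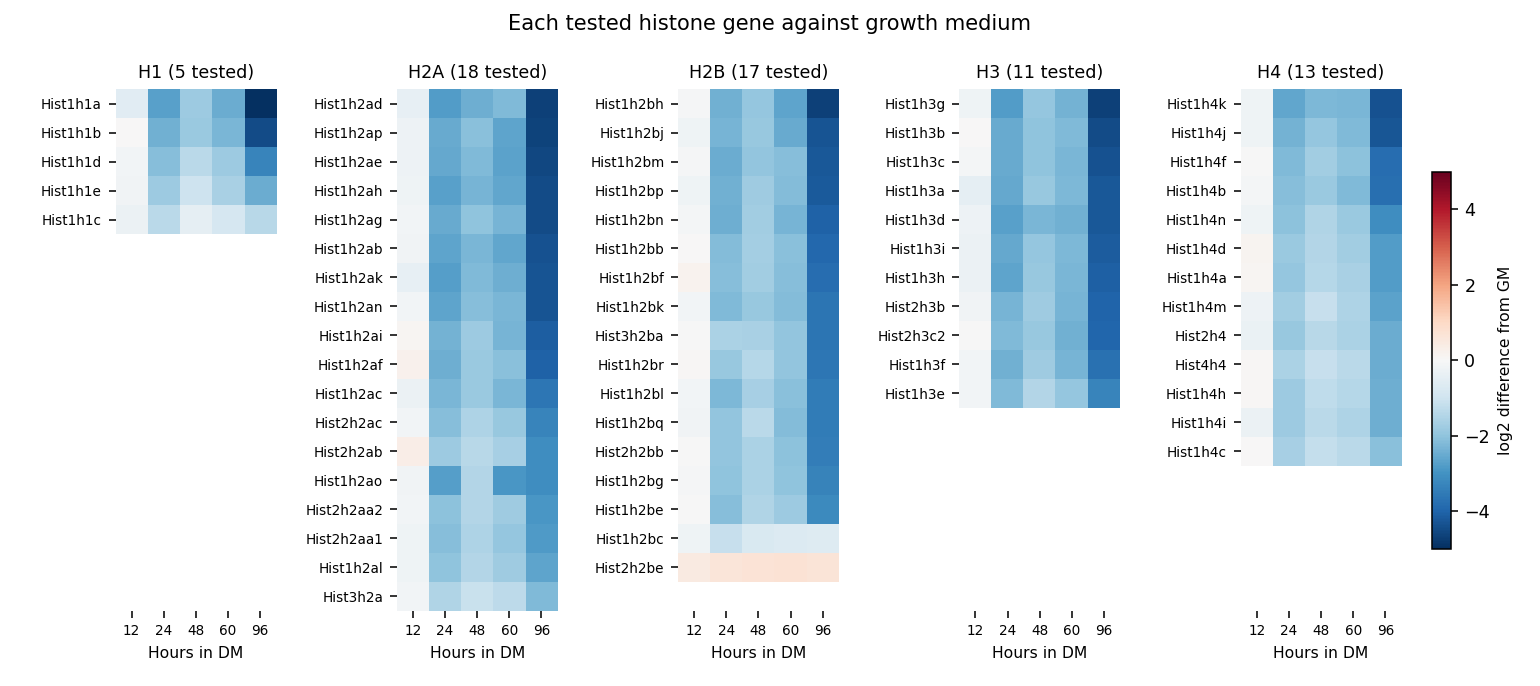
The log2 difference from GM (colour, blue lower and red higher) of each of the 64 tested members at 12, 24, 48, 60 and 96 h in DM (x axis), by class and ordered by the 96 h value. Nearly all cells from 24 h on are blue and the 96 h column is darkest, except for Hist2h2be, which is red, and Hist1h2bc, which stays pale.

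The 5 tested linker histone genes ranged from −5.13 to −1.38 at 96 h. Hist1h1a, at chr13:23763668-23764412, had 4.74, 5.41 and 5.42 CPM at 96 h, 2.86% of its GM mean, and fell by 5.13 ± 0.06 (35.0-fold, edgeR adjusted p = 3.2e-24), more than any other member. Hist1h1b had 293, 296 and 284 CPM in GM and between 12.6 and 13.6 CPM at 96 h, and fell by 4.48 ± 0.04. Hist1h1c, at chr13:23738807-23739531, had the highest mean CPM of the H1 genes. It had 386, 358 and 345 CPM in GM, 149.6, 139 and 138 CPM at 24 h, 274, 263 and 263 at 48 h and 139, 136 and 144 at 96 h. Its fall of 1.38 ± 0.06 at 96 h (edgeR adjusted p = 2.7e-15) left it at 38.5% of GM. At 96 h Hist1h1c alone held 139.6 of the 229.6 CPM of the H1 class, against 363 of 1369 CPM in GM.

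Among the H2A genes, Hist1h2ad, at chr13:23574381-23574915, had the largest fall at 96 h. It had 107, 111 and 79.2 CPM in GM and 3.98, 3.83 and 3.97 CPM at 96 h (−4.66 ± 0.16, edgeR adjusted p = 7.1e-17). Hist2h2aa2, the H2A gene with the highest mean, had 614, 529.7 and 550.5 CPM in GM and 72.1, 74.9 and 80.2 CPM at 96 h (−2.90 ± 0.10). The smallest fall in the class was that of Hist3h2a (−2.19 ± 0.07), which had 117, 111 and 109.8 CPM in GM and 25.0, 25.0 and 23.8 CPM at 96 h; Hist3h2a was singled out after its values were seen.

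The H2B genes held the only member that was higher at 96 h and the member with the smallest fall. Hist1h2bh, at chr13:23542923-23543444, had the largest fall of the class at 96 h (−4.67 ± 0.13, edgeR adjusted p = 2.4e-18), from 74.9, 63.1 and 66.9 CPM in GM to 2.24, 2.79 and 3.02 CPM. Hist1h2bk, with the highest mean of the class, went from 371, 351 and 342 CPM to 28.1, 27.6 and 28.3 CPM (−3.66 ± 0.07).
Hist2h2be, at chr3:96221072-96223738, was the only member called higher from 24 h on in the fit of all libraries. It was a low-level gene, with 1.19, 1.37 and 1.63 CPM in GM, 2.30, 2.27 and 1.78 CPM at 24 h, 2.62, 1.91 and 2.46 at 60 h and 2.76, 1.82 and 1.90 at 96 h. Each of these later libraries, those at 12 h included, lay above the GM range. The rise was 0.60 ± 0.19 at 24 h, 0.68 ± 0.19 at 48 h, 0.73 ± 0.19 at 60 h and 0.63 ± 0.19 at 96 h (edgeR adjusted p = 0.011, 0.0042, 0.0024 and 0.0072). Without library 1 at 96 h, no member was called higher at 96 h.
Hist1h2bc, at chr13:23684199-23692480, was singled out after its values were seen. It had 122, 116 and 115 CPM in GM, 55.6, 51.8 and 49.7 CPM at 24 h, 68.5, 71.8 and 66.7 at 48 h, 70.9, 73.2 and 72.3 at 60 h and 76.6, 75.7 and 76.2 at 96 h. It fell at 24 h (−1.17 ± 0.06) and was 0.63 ± 0.06 lower than GM at 96 h (edgeR adjusted p = 7.2e-09). Between 24 and 48 h it rose by 0.40 ± 0.06, and its differences from 48 to 60 h (0.06) and from 60 to 96 h (0.08) did not pass the test. At 96 h it made up 76.2 of the 237 CPM of the H2B class, against 118 of 2094 CPM in GM. The RefSeq spans of these genes, 8282 bases for Hist1h2bc and 2667 bases for Hist2h2be, are among the 7 member spans over 1000 bases, and neither gene has an entry in the promoter table.

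**Figure D3:**
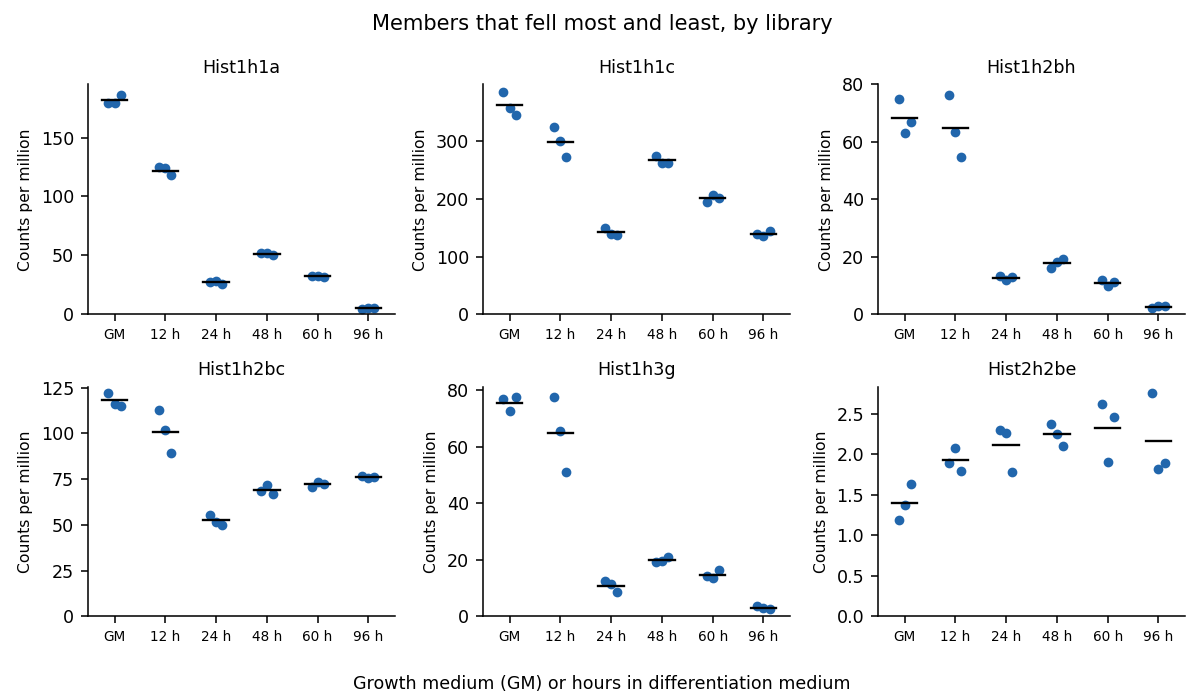
CPM (y axis, from 0) of 6 members in each library (points) in GM and by hours in DM (x axis), with the mean of 3 libraries as a bar. Hist1h1a, Hist1h2bh and Hist1h3g come close to 0 at 96 h, Hist1h1c and Hist1h2bc keep over 130 and 75 CPM, and Hist2h2be rises from a mean of 1.40 to 2.16 CPM.

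The H3 genes formed the most even class, with all 11 tested members between −4.67 and −3.29 at 96 h. Hist1h3g fell from its GM level to 3.55, 2.79 and 2.53 CPM at 96 h (−4.67 ± 0.16, edgeR adjusted p = 8.5e-17). Hist1h3h, with the highest mean of the class, went from 323, 292 and 309.5 CPM to 16.9, 18.2 and 18.7 CPM (−4.10 ± 0.11). Hist1h3e, singled out after its values were seen, had the smallest fall (−3.29 ± 0.08).

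The 13 H4 genes ranged from −4.34 to −2.08 at 96 h. Hist1h4k, at chr13:21750145-21750553, had 233, 224 and 204 CPM in GM and 10.8, 11.3 and 10.6 CPM at 96 h (−4.34 ± 0.09, edgeR adjusted p = 2.9e-20). Hist1h4n, which had the highest mean of any member, went from 761, 709.7 and 721 CPM to 86.5, 87.2 and 83.6 CPM (−3.09 ± 0.08). Hist1h4c, singled out after its values were seen, fell least in the class, from 144, 145 and 125 CPM to 30.6, 34.2 and 32.8 CPM (−2.08 ± 0.06). The GM and 96 h libraries of all these genes lay apart, and the share of all genes with such a gap is not given here.

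By position, the members of the Hist1 block at chr13:21715711-22043658 had a median of −4.17 at 96 h (23 tested, −4.64 to −2.44). Those of the block at chr13:23531044-23764412 had a median of −3.78 (28 tested, −5.13 to −0.63). The Hist2 members had a median of −3.11 (9 tested, −3.99 to 0.63). These blocks hold different classes, and the difference between them was not tested.

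The H2A and H2B genes of the 9 back-to-back pairs fell together, to different depths. At 96 h the H2A gene had the lower log2 difference in 8 of 9 pairs. Among these 9 pairs the gap was widest for Hist1h2ae (−4.56 ± 0.12) and Hist1h2bg (−3.34 ± 0.06), whose shared region is printed above. Hist1h2ae had 70.4, 68.9 and 68.4 CPM in GM and 2.60, 3.50 and 2.67 CPM at 96 h, and Hist1h2bg had 247, 233 and 218 CPM in GM and 22.1, 24.4 and 22.5 CPM at 96 h. It was narrowest for Hist1h2an (−4.32) and Hist1h2bp (−4.20). The exception was Hist1h2ao and Hist1h2bq (−3.10 and −3.48), whose promoter windows share long runs with those of Hist1h2ap and Hist1h2br. The neighbours left out for want of a window lay further apart. At 96 h Hist1h2ac was at 8.09% of its GM mean and Hist1h2bc at 64.8%. Hist2h2ac was at 10.1% and Hist2h2be at 155%. The difference within pairs was not tested, and the pairs were described after their values were seen.

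**Figure D4:**
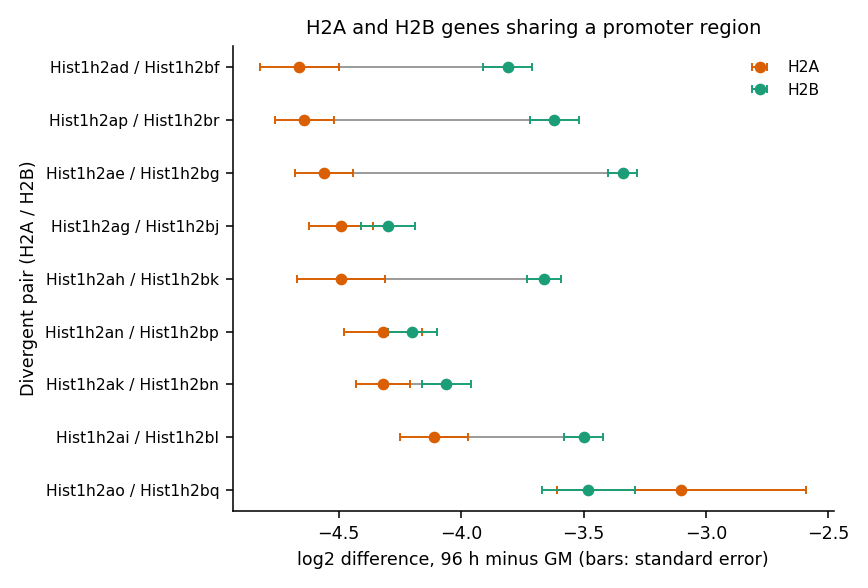
The log2 difference between 96 h and GM (x axis, with the standard error) of the H2A and the H2B gene in each of 9 back-to-back pairs (y axis). The H2A point lies left of its H2B partner in 8 pairs, by 0.12 to 1.22.

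Some members have near-identical promoter windows. Their transcripts were not compared here, and the sources used here do not give how reads that fit more than 1 gene were assigned. The promoter windows of Hist1h2bq and Hist1h2br are identical over all 300 bases, and those of Hist1h4m and Hist1h4n share a run of 285 bases. Hist2h3c1 and Hist2h3c2 share 231 bases, Hist2h2aa1 and Hist2h2aa2 219 bases, and Hist1h2ao and Hist1h2ap 200 bases. In each pair 1 gene held most of the counts in GM. Hist2h3c2 had 271 CPM and Hist2h3c1 0.221 CPM, Hist1h2ap 257 and Hist1h2ao 2.05 CPM, Hist1h4n 730.5 and Hist1h4m 16.1 CPM, Hist1h2br 117 and Hist1h2bq 13.8 CPM, and Hist2h2aa2 565 and Hist2h2aa1 206 CPM. Whether reads were divided correctly within these pairs was not tested. A class sum does not depend on the division within a pair, but it would on reads left out. Members with alike transcripts but unlike windows were not looked for, so values of other single members may carry this limit too.

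Between 24 and 48 h the histone genes rose again. Of the 64 tested, 58 were higher and 0 were lower, beside 17.5% higher and 14.8% lower of all genes, and the median was 0.50 against 0.02 for all genes. All 5 tested H1 genes and all 11 H3 genes were higher, with 15 of 18 H2A, 15 of 17 H2B and 12 of 13 H4 genes. Hist1h1a rose by 0.91 ± 0.05, Hist1h1c by 0.90 ± 0.06 and Hist1h3g by 0.88 ± 0.14. From 48 to 60 h, 44 members were lower and 0 higher, beside 11.3% lower and 15.8% higher of all genes, with a median of −0.34. From 60 to 96 h, 61 were lower and 0 higher, beside 24.6% and 22.6%, with a median of −1.62. The first large step, from 12 to 24 h, had 63 lower and 0 higher, beside 26.5% and 27.8%, with a median of −2.14. Each count of 0 from edgeR in these 4 steps was also 0 at an unadjusted p under 0.05 and 0 with DESeq2.

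Genes of DNA synthesis moved with the histone genes in some steps and against them in others. The list of 23 holds replication and nucleotide genes such as Pcna, the Mcm helicase subunits, Tk1 and Rrm2. From 12 to 24 h all 23 were lower (median −1.58), beside 26.5% of all genes. From 60 to 96 h all 23 were lower (median −1.66), beside 24.6%. From 24 to 48 h, when histone genes rose, 4 were higher and 5 lower (median −0.07), beside 17.5% and 14.8% of all genes. From 48 to 60 h, when histone genes fell, 21 were higher (median 0.47), beside 15.8% of all genes. The sum of the list was 840 ± 19.2 CPM at 24 h, 873 ± 14.9 at 48 h, 1208 ± 30.6 at 60 h and 504 ± 9.54 at 96 h (SD, n = 3). At 12 h against GM, 14 were higher and 3 lower (median 0.16), beside 17.8% and 17.2% of all genes. The difference between the lists was not tested.

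**Figure D5:**
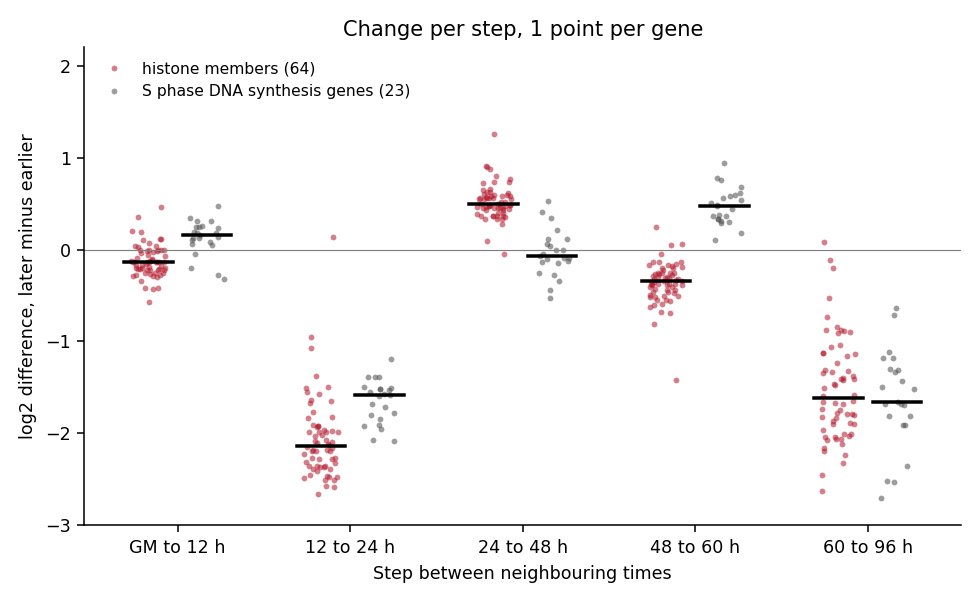
The log2 difference of each gene (points) in each step between neighbouring times (x axis), for the 64 tested members and the 23 S phase DNA synthesis genes, with medians as bars. The medians have opposite signs from 24 to 48 h (0.50 and −0.07) and from 48 to 60 h (−0.34 and 0.47), and are both below −1.5 from 12 to 24 h and from 60 to 96 h.

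The genes that make and process histone mRNA had smaller differences from GM than most histone genes, a contrast given as values and not tested. Slbp had 77.7, 84.5 and 78.4 CPM in GM, 44.4, 45.0 and 41.8 CPM at 24 h, 54.6, 54.4 and 55.2 at 60 h and 24.5, 27.2 and 21.8 at 96 h. It rose at 12 h (0.22), fell by 0.88 at 24 h and by 1.71 at 96 h (edgeR adjusted p = 2.5e-16 at 96 h), and rose by 0.41 from 48 to 60 h. Of the 17 genes of histone 3′ end processing and decay, 13 were lower and 2 higher at 60 h, beside 32.2% and 33.1% of all genes. At 96 h again 13 were lower and 2 higher, beside 34.1% and 34.8%, with a median of −0.28. At 60 h the largest falls were those of Zfp473 (−0.88), a U7 snRNP-associated zinc finger protein, the cleavage factor subunit Cstf2 (−0.57) and Sympk (−0.56), the scaffold of the cleavage complex. The called rises were those of Ncbp2 (0.42), a cap-binding subunit, and Zcchc6 (0.30), a uridylyltransferase. At 96 h these were −1.65, −0.82, −0.24, 0.30 and 0.42 in the same order.

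Of 12 genes listed for histone gene transcription, 7 were lower and 1 higher at 60 h, beside 32.2% and 33.1% of all genes. The list also holds the replication kinase genes Cdc7 and Dbf4, both among the lower ones, so its counts are not of histone gene regulators alone. At 96 h 7 were lower and 2 higher, beside 34.1% and 34.8%. Npat, with 30.8, 30.3 and 30.2 CPM at 96 h, fell by 0.29 at 96 h, and its values at 48 h (−0.04) and 60 h (−0.13) did not pass the test. Casp8ap2, a histone locus body protein, fell by 0.54 at 24 h and by 0.75 at 96 h. The replication kinase genes Dbf4 (−1.50 at 60 h, −2.63 at 96 h) and Cdc7 (−1.07, −2.52) and the activator E2f1 (−0.49, −1.12) fell. Both cyclin E genes, singled out after their values were seen, were lower at 60 h and 96 h, with log2 differences of −0.46 and −2.41 for Ccne1 and −0.25 and −3.24 for Ccne2. At 96 h Ccne1 was at 18.8% of its GM mean and Ccne2 at 10.6%. From 48 to 60 h they rose, by 0.86 and 1.08. Cdk2 was the called rise at 60 h (0.23), and reached 0.59 at 96 h.

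The variant histone genes of the list split into groups. H2afx, which codes for the DNA damage histone H2A.X, had a course like that of the members, with 168, 154 and 148 CPM in GM, 39.2, 34.2 and 32.3 CPM at 24 h, 49.7, 51.9 and 50.6 at 48 h, 36.3, 41.5 and 40.6 at 60 h and 13.5, 15.0 and 13.7 at 96 h. It fell by 3.48 at 96 h, rose by 0.53 from 24 to 48 h and fell by 0.36 from 48 to 60 h. In mammals its mRNA can end in the stem-loop or in a poly(A) tail. H3f3a, an H3.3 gene, rose by 0.39 at 12 h, 0.80 at 60 h and 0.60 at 96 h, from 337, 335 and 376 CPM in GM to 549, 540.3 and 505 CPM at 96 h. The other main H3.3 gene, H3f3b, fell by 0.31 at 60 h and by 0.91 at 96 h, from 536, 556 and 565 CPM to 301, 295 and 288 CPM. H3f3c, which the count table annotates as a processed pseudogene, rose by 1.28 at 60 h from a low level of 1.07 to 2.59 CPM in GM.
H2afz, which codes for H2A.Z, fell by 1.29 at 60 h and 1.79 at 96 h, and Cenpa, the centromeric H3 variant, fell by 1.84 and 3.08. The replacement linker gene H1f0 had 136, 126 and 132 CPM in GM and 167, 174 and 179 CPM at 48 h, its highest group, with no overlap. Against GM it rose by 0.40 at 48 h (edgeR adjusted p = 4.5e-07), was at 0.04 at 60 h, which did not pass the test, and fell by 0.29 at 96 h. H1fx fell by 1.24 at both times from a mean near 3 CPM. Of the 12 variants, 7 were lower and 2 higher at 60 h, beside 32.2% and 33.1% of all genes. At 96 h 9 were lower and 2 higher, beside 34.1% and 34.8%. H3f3a and H3f3c were the higher ones both times.

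Of 19 histone chaperone genes, 13 were lower than in GM and 4 higher at 60 h, beside 32.2% and 33.1% of all genes. At 96 h 14 were lower and 4 higher, beside 34.1% and 34.8%. From 48 to 60 h, when histone genes fell, 4 chaperone genes were lower and 10 higher, beside 11.3% and 15.8% of all genes. The largest falls at 60 h against GM were in genes for chaperones that work at the replication fork. Chaf1a, the large subunit of chromatin assembly factor 1, fell by 1.61 at 60 h and 3.13 at 96 h, Asf1b by 1.48 and 2.89, and Chaf1b by 1.02 and 3.66. At 60 h Atrx (0.38), Rbbp4 (0.17) and Nap1l4 (0.17) rose. Of 6 reserve and satellite cell markers, 5 were tested, with 1 lower and 3 higher at 60 h, beside 32.2% and 33.1% of all genes.

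Most histone gene starts lay in accessible chromatin in both conditions. Of 60 members with a start in RefSeq, 51 had a deposited ATAC-seq peak on the window from 250 bases before to 50 after it in GM and 51 at 60 h, which is 85.0% each, beside 51.7% and 52.1% of all 27025 genes with a start. At 60 h the median histone mRNA level was 2.14 lower on the log2 scale than in GM. The authors' fold enrichment of the peaks at members had a median of 3.84 in GM (range 1.91 to 6.75), above 63.6% of all peaks in that list. In the 60 h list the median was 4.71 (range 1.34 to 7.25), above 78.5% of its peaks. A peak that covers several starts counts once for each, and the lists also hold peaks away from gene starts. Folds of separate lists are not compared here. The region shared by Hist1h2ae and Hist1h2bg lay in a peak at chr13:23570782-23572231 in GM and at chr13:23570715-23571821 at 60 h, and the start of Hist1h1c in one at chr13:23738650-23740168 and chr13:23738650-23740175.
In GM the 9 starts with no peak were those of Hist1h1t, Hist1h2ao, Hist1h2ap, Hist1h2bq, Hist1h2br, Hist1h4m, Hist2h2aa2, Hist2h3c1 and Hist2h3c2. At 60 h Hist2h2aa2 had a peak and Hist1h4n had none. All of these but Hist1h1t belong to the pairs with near-identical promoter windows above, and the part of the shared sequence in this was not tested.

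The Hist1 blocks lay at the same domain borders in GM and at 60 h. In both conditions the deposited Hi-C calls placed a boundary between topological domains at chr13:22040001-22080000, at the end of the first block, with a strength score of 1.59 in GM and 1.62 at 60 h. A second boundary lay inside the other block, at chr13:23600001-23640000, with scores of 2.39 and 2.42. The sources used here do not give the scale of this score. The Hist2 cluster lay in a domain of 1520 kb in GM and 480 kb at 60 h, and Hist4h4 in domains of 1840 kb and 360 kb. The Hist3 pair lay in a boundary of 40 kb in GM (chr11:58920001-58960000, score 0.697). At 60 h it lay at the end of a domain of 760 kb (chr11:58200001-58960000), which stops at the same base as that boundary.
In the deposited loop table, 46 loops had an anchor on a member, of which 20 were called in GM only, 19 at 60 h only and 7 in both. As shares these are 43.5%, 41.3% and 15.2%, beside 51.1%, 37.7% and 11.2% of all loops. Of them, 5 joined a member of 1 Hist1 block to a member of the other, 2 called in GM only, 2 at 60 h only and 1 in both. The 46 include 2 loops at the uncertain position of Hist1h2al, called in GM only. They join chr13:51200001-51225000 to chr13:50925001-50950000 and to chr13:51400001-51425000. With 1 set of calls per condition, no difference in peaks, domains or loops between GM and 60 h could be tested.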

How the data were processed

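RNA-seq covered 18 C2C12 libraries, ATAC-seq and Hi-C GM and 60 h. Unscaled whole-number counts of reads on each gene are what the authors deposited. STAR, RSEM and genome build mm10 are named by the submitters' processing notes. The RNA libraries are strand-specific, per the labels' protocols. The authors' peak lists (Bowtie2 2.2.6 and MACS2 2.2.7, per the submitters' processing notes) give a fold enrichment, a ratio over background, and a −log10 q value per peak. The boundary table holds a strength score, as deposited, and HiC-Pro is named by the submitters' processing notes. The loop table lists positions and conditions.

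The 18 libraries were fitted together (edgeR 4.0.16, R 4.3.3) after filterByExpr by group and TMM scaling, using the quasi-likelihood F test with 12 residual degrees of freedom, with Benjamini-Hochberg adjustment over all 15303 genes tested. SE is the log2 difference divided by the square root of F. Total counts were 24.2 to 36.4 M per library, with a common biological coefficient of variation of 0.0621. Tested on simulated data for 60 h against GM over 15303 genes, the fit recovered 77.6% of genes changed 1.5-fold, 85.1% changed 2-fold and 98.5% changed 4-fold, and called 15 unchanged genes. No 2 replicates were alike within sampling noise: their chi-square statistic over its degrees of freedom was 5.06 to 53.2. Alternatives were DESeq2 1.42.0, other scalings, filters and sample sets, and each library left out.

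The members and the gene lists were chosen with earlier results of these data known. Named genes were, in each time against GM and each class, the called members with the largest rise and fall and those against their class; in each class the member with the highest mean; in each list at most 3 called genes each way with the largest change at 60 h; and Slbp, Npat, Casp8ap2 and the main variant histones. Others are marked as chosen after their values were seen. No protein or 3′ end sequence was used here.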

Additional observations from a re-analysis of the deposited data

How the results depend on the processing

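From 24 h on, the counts of members lower than in GM and in each step kept within 1.5 times under every other scaling, filter, tool and sample set tried. The 12 h counts moved. With the 6 libraries of that contrast alone, 11 members were lower (20 in the fit of all libraries) and 0 higher (1). The number higher at 12 h was 2 with RLE scaling, 2 with DESeq2, 5 with no filter and 3 with a filter of 1 CPM. With no filter, 2 members were higher at 48 h, and 1 was higher from 48 to 60 h. The cause of these shifts was not tested. Leaving out each library in turn gave 6 to 31 lower and 0 to 8 higher at 12 h. At 48 h it gave 1 to 2 higher, and 2 in most of these fits. It gave 0 to 1 higher at 96 h, 53 to 60 higher from 24 to 48 h and 36 to 53 lower from 48 to 60 h. For single named genes, other settings ended 47 calls and made 44, and leaving out a library ended 199 and made 67. No direction of a called value turned. With the replicate number as a block, 22 members were lower and 2 higher at 12 h, 46 were lower from 48 to 60 h, and 58 were higher from 24 to 48 h. Over all genes 2 of 45 same-number pairs correlated above 0.1, and 2 of 18 libraries correlated best with their own number. These correlations gave no sign of pairing by number but cannot exclude it. Among the members, library 1 was above its group in GM, at 12 h and at 24 h (medians 0.11, 0.27 and 0.11). Library 3 was below it at these times (−0.05, −0.35 and −0.1). At 48, 60 and 96 h library 1 was at −0.03, 0 and −0.04, and library 3 at −0.02, 0.04 and 0.05. Peaks at 51 member starts in each list became 55 in GM and 54 at 60 h within 1000 bases of the start, 51 and 50 at a −log10 q of at least 5, and 37 in each when the peak had to cover the whole window. With anchors counted within 25000 bases of a member, 35 loops were called in GM only, 37 at 60 h only and 12 in both. Depth limits Hist1h1t, Hist2h3c1 and Hist1h2ao.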
